A study of Mus musculus with 22 samples.

Results

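The hedgehog genes examined here are the ligands Ihh and Shh, the receptor Ptch1, the signal transducer Smo, the transcription factors Gli1, Gli2 and Gli3, the decoy receptor Hhip and the cartilage factor Pthlh. They were chosen by name: every non-control probe whose gene name or accession belongs to 1 of them was taken, which gave 9 of 21174 named genes on the array and 17 of 41174 probes. The samples were forelimbs of mouse embryos of strain 129 at embryonic day 13.5, with 13 samples labelled Chsy-1 knockout (KO) and 9 labelled wild type (WT). The labels do not give the knockout allele, nor whether a sample is 1 embryo or a pool, so p-values measure the spread between these samples. Chsy1 encodes an enzyme that extends chondroitin sulfate chains on proteoglycans. Each Cy5-labelled sample shared a two-colour array with the same Cy3-labelled universal mouse reference RNA, with no dye swap. Values are therefore log2 of Cy5 over Cy3, compared between arrays within 1 probe only.

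In the hedgehog pathway a secreted ligand binds Ptch1, which otherwise holds Smo inactive, and active Smo lets the Gli proteins switch on target genes. Ptch1, Gli1 and Hhip are themselves classical targets, so their transcripts are commonly read as a measure of signalling, while Gli3 acts largely as a repressor without ligand. In the limb, Shh patterns the early bud from its posterior margin. Ihh is made later by cartilage cells leaving proliferation, and Pthlh, the gene of parathyroid hormone-related protein, is induced by Ihh signalling and delays cartilage maturation.

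The brightest probes of Ihh and Ptch1 moved together across the arrays with that of Gli1, and Hhip had the largest difference in mean between genotypes. The 250 bases upstream of the annotated start of Ihh, Ptch1 and Hhip are shown. They come from RefSeq on GRCm38.p6, whose promoter table held 7 of the 9 genes, and each is written in the direction of its gene (minus strand). Capitals mark CCACCC or GGGTGG, which is the core of the Gli consensus GACCACCCA read on either strand.
Ihh, chr1:74951673-74951922: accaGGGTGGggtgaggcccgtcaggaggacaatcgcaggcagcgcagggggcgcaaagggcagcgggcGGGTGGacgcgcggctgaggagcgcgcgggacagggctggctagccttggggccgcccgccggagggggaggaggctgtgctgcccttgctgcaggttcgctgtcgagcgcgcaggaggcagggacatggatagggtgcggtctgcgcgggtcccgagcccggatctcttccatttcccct
Ptch1, chr13:63565736-63565985: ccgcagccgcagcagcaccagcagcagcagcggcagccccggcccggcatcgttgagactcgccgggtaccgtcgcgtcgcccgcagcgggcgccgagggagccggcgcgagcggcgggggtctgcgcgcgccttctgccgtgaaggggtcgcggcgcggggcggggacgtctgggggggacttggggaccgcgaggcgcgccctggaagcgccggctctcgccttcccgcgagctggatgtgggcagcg
Hhip, chr8:80058009-80058258: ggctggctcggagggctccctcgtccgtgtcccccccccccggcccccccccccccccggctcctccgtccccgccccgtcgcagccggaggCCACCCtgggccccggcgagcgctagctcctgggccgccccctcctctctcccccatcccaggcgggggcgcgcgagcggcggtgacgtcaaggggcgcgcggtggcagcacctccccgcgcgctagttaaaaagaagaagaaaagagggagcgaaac
The whole consensus, GACCACCCA or its complement TGGGTGGTC, was in the upstream window of none of the 7 genes, and was in 0.225% of the 32851 windows of the table. With 1 mismatch allowed, none of the 7 windows held it, against 5.79% of all windows. The core of 6 letters was in 6 of the 7 windows, all except that of Ptch1, and in 28.1% of all windows. The 7 windows were 67.2% to 78.4% G or C and the core is rich in both, and the share over all windows was not matched for that.

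Of 43379 spots on an array that were no controls, 27214 to 30599 were well above background in Cy5. The targeted transcript Chsy1 lay at 0.869% to 1.82% of the WT mean on 12 KO arrays and at 33.6% on the array labelled KO 1, so results are also given without KO 1 where it moves them. Arrays WT 1 and KO 12 stood apart from the rest for most dim hedgehog probes, and results that rest on them are given without 1 or both of them. The forelimb factor Tbx5 was above background on all 22 arrays, as were the hindlimb factors Tbx4 and Pitx1, the cartilage collagen Col2a1 and the liver genes Afp and Alb. In whole limbs, fewer cells of a type and less RNA per cell cannot be told apart.

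No hedgehog gene differed between KO and WT forelimbs past the threshold. With limma, 0 of the 8 genes measured above background had an adjusted p under 0.05, against 4 of all 18639 tested genes (0.0215%), and 0 of 8 had an unadjusted p under 0.05, against 5.33% of all genes. The mean was lower in KO for 6 of the 8 genes, which compares with 53.4% of all genes. The median difference of the 8 was -0.085 on the log2 scale, against -0.0072 over all genes. The 95% interval of each of the 8 lay within a 1.5-fold change either way, as did that of 96.6% of all genes. Of the 9 genes Shh alone did not pass the filter on dim probes, which asked for signal on at least 9 arrays. The background step adds 50 intensity units to each channel, which compresses the ratios of dim probes, and these intervals hold on that scale.

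**Figure D1:**
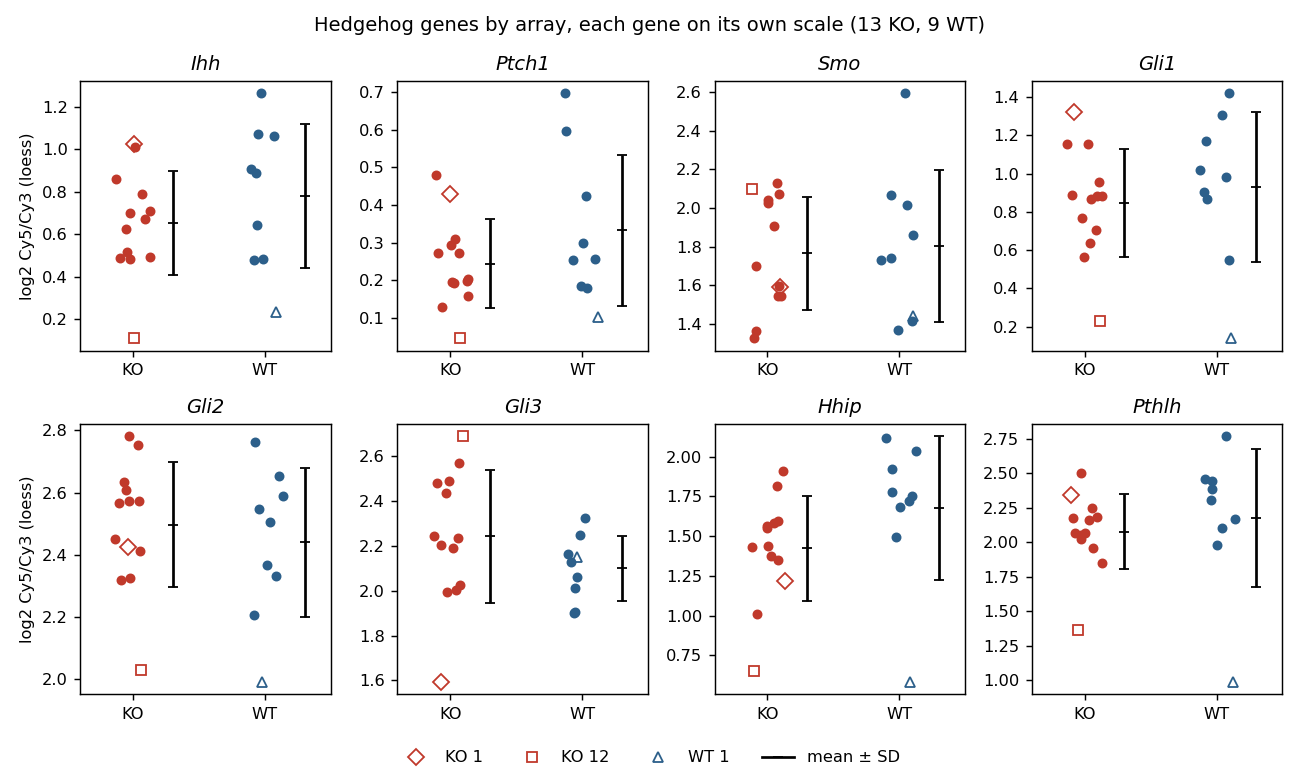
Each point is the loess-normalised log2 Cy5/Cy3 ratio of 1 array, with 13 KO arrays left of 9 WT arrays in each panel, and bars give the mean ± SD. Open symbols mark KO 1, KO 12 and WT 1. KO and WT overlap for all 8 genes, and WT 1 and KO 12 are the lowest 2 arrays for Ihh, Ptch1, Gli1, Gli2, Hhip and Pthlh.

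Among the ligands, Ihh was measured by a probe with 10 spots per array at chr1:74878981-74879040 (minus strand, mm8). Its log2 ratio had a lowest value of 0.11, a median of 0.67 and a highest value of 1.03 in KO, against 0.24, 0.89 and 1.26 in WT. The groups overlapped, although 11 of 13 KO arrays were below the WT median. The mean was 0.65 ± 0.25 in KO and 0.78 ± 0.34 in WT (SD, n = 13 and 9), a difference of -0.13 (SE 0.118, interval -0.37 to 0.12, limma adjusted p = 0.94). A second Ihh probe, 2073 bases away on the genome, differed by -0.14 (-0.34 to 0.066). The 10 spots of the first probe had a median SD of 0.110 within an array, which puts an SE of 0.0368 on an array's mean, against an SD of 0.287 between arrays of 1 genotype.

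Shh, with 10 spots of a probe at chr5:28788230-28788289 (minus strand, mm8), was at background. Its Cy5 signal above local background was 0.308 to 23.7 units in KO and 1.23 to 5.07 units in WT. Without KO 12 the highest KO array had 4.74 units. KO 12 had 4 of 10 Shh spots well above background and KO 8 had 1 of 10, while the other 20 arrays had 0. The scanner software reported a ratio of exactly 0 for 196 of the 220 spots. Shh was therefore not tested.

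The receptor Ptch1 (probe at chr13:63520821-63520880, minus strand, mm8) had ratios of 0.05, 0.20 and 0.48 (lowest, median and highest) in KO and 0.10, 0.26 and 0.70 in WT, with groups that overlapped. The difference was -0.088 (-0.23 to 0.054, limma adjusted p = 0.93). The transducer Smo had 1.32, 1.70 and 2.13 in KO and 1.37, 1.74 and 2.59 in WT at its brightest probe, a difference of -0.039 (-0.32 to 0.24, limma adjusted p = 0.99). The level of that probe was high on every array, at 36805 to 79365 units in KO and 25677 to 77933 units in WT. The other tested Smo probe had 110 to 387 units in KO and 51.4 to 504 units in WT. The Smo probe left untested was above background on 0 KO arrays and 1 WT array.

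Of the transcription factors, Gli1 is the target whose transcript depends most on the pathway. Its probe is at chr10:126733884-126733943 (minus strand, mm8), those of Gli2 and Gli3 at chr1:120662224-120662283 and chr13:15520556-15520615. The Gli1 ratio was 0.23, 0.88 and 1.32 (lowest, median and highest) in KO and 0.14, 0.98 and 1.42 in WT. The difference was -0.081 (-0.36 to 0.20, limma adjusted p = 0.98), and -0.18 (-0.42 to 0.066) without WT 1. With 1 array left out in turn, it ran from that value to -0.019 (without WT 8). Gli2, the main activator, had 2.03, 2.57 and 2.78 in KO and 1.99, 2.51 and 2.76 in WT, with nearly the same range in both groups and a difference of 0.057 (-0.13 to 0.25). Gli3 had 1.59, 2.24 and 2.69 in KO and 1.90, 2.13 and 2.32 in WT. The Gli3 ratio spread more widely in KO, from KO 1 as the lowest array to KO 12 as the highest. Its difference was 0.14 (-0.069 to 0.36, limma adjusted p = 0.93) and 0.20 (0.019 to 0.38, adjusted p = 0.98) without KO 1.

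Hhip, which binds hedgehog ligand and is itself a target, had the largest difference of the 8. At the probe at chr8:82868387-82868446 (minus strand, mm8) its ratio was 0.65, 1.44 and 1.91 (lowest, median and highest) in KO and 0.59, 1.75 and 2.11 in WT. On 11 of 13 KO arrays it was below the WT median, and the lowest array of all was WT 1. The mean was 1.42 ± 0.33 in KO and 1.68 ± 0.45 in WT (SD, n = 13 and 9). The difference was -0.25 (-0.57 to 0.067, limma adjusted p = 0.92), and -0.39 (-0.64 to -0.14, adjusted p = 0.83) without WT 1. Without KO 12 it was -0.19, the other end of the range when 1 array was left out. Hhip was lower in KO on 5 of the 6 slides, with differences within slides of -0.66 to 0.65. Slides 4, 5 and 6 held 1 WT array each, and the value of 0.65 came from slide 1, which held WT 1. A dimmer Hhip probe, above background on 3 KO and 6 WT arrays, differed by -0.029 (-0.17 to 0.12).

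Pthlh had 1.36, 2.07 and 2.51 in KO and 0.99, 2.30 and 2.77 in WT, and 11 of 13 KO arrays were below the WT median. The difference was -0.10 (-0.42 to 0.22, limma adjusted p = 0.97), and -0.25 (-0.48 to -0.017, adjusted p = 0.90) without WT 1. With 1 array left out in turn, it ran from that value to -0.026 (without WT 4). Both groups overlapped over nearly the whole range.

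Position on the slide was unevenly shared: position 1 held 6 WT arrays, positions 3 and 4 held 6 and 4 KO arrays, and position 2 held 3 of each. Within position 2 the differences were -0.20 for Ihh, -0.050 for Ptch1, -0.23 for Gli1, -0.29 for Hhip and -0.11 for Pthlh. Within slides, KO was lower on 4 of 6 slides for Ihh and Pthlh and on 3 for Ptch1, Gli1 and Smo. It was lower on 2 for Gli2 and on 1 for Gli3. On slides 4, 5 and 6 the comparison rests on 1 WT array each. In position 2 the differences of Smo (0.053), Gli2 (-0.037) and Gli3 (-0.066) had the opposite sign to the one over all arrays.

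The deposited ratio was then set against the renormalised one. The deposited ratio, computed by the scanner software, is the log of dye-normalised Cy5 over Cy3 signal without an added offset. It gave larger differences for the ligand Ihh and for the dim targets Ptch1, Gli1 and Hhip. Ihh had -0.35 (-0.75 to 0.055) and Ptch1 -0.40 (-0.78 to -0.028). Gli1 had -0.30 (-0.76 to 0.15) and Hhip -0.56 (-1.25 to 0.13). The limma adjusted p was 0.998 for each of these. Their intervals were wider as well, since the SD between arrays of a genotype was 0.466 for Ihh by the scanner ratio and 0.287 after loess. For the bright probes of Smo and Gli3 the choice mattered little, with correlations between both ratios over the 22 arrays of 0.999 and 0.982. For Gli1 that correlation was 0.562, for Hhip 0.576 and for Pthlh 0.251. The Pthlh difference was -0.10 after loess and 0.057 by the scanner ratio. The deposited Hhip ratio was 1.98 on KO 11, where the other KO arrays had 4.64 to 5.58. The Cy3 signal of that probe above background was 43 units on KO 11 and 6.14 to 13.5 units on the other KO arrays. The deposited Hhip difference without KO 11 was not computed.

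**Figure D2:**
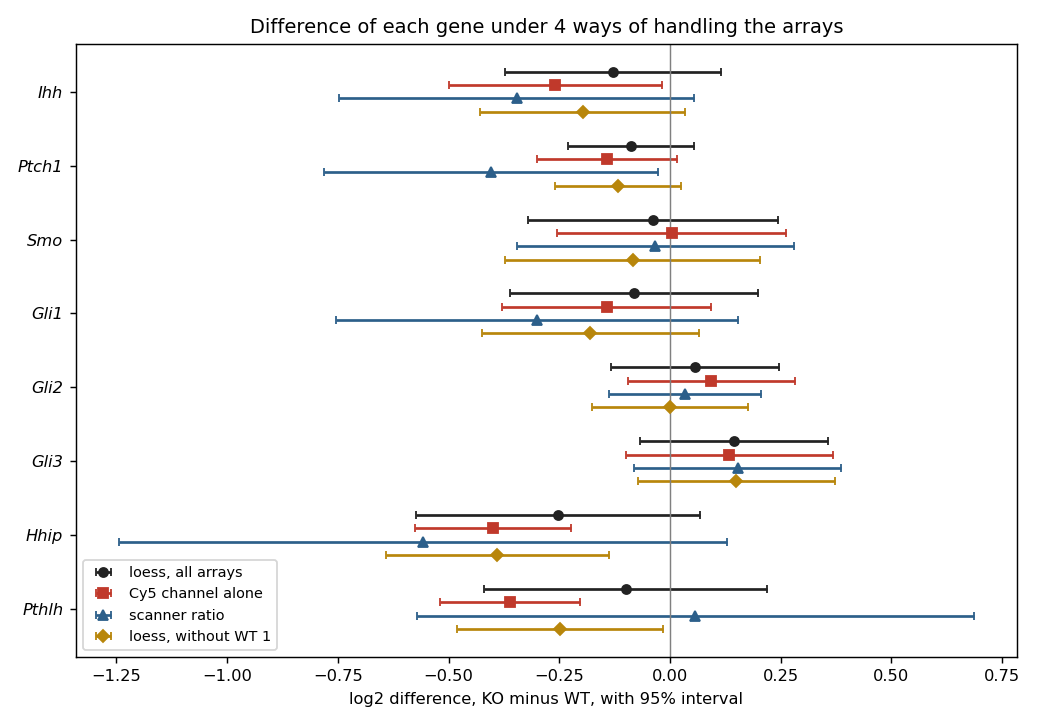
Points give the log2 difference, KO minus WT, with its 95% interval for each gene after loess, from the Cy5 channel alone, by the scanner ratio and after loess without WT 1. Ihh, Ptch1, Gli1 and Hhip lie below 0 under all 4, whereas Pthlh changes sign with the scanner ratio and Smo with the Cy5 channel. Of all arrays left out in turn, WT 1 gave the lowest difference for Ihh, Ptch1, Gli1, Gli2, Hhip and Pthlh.

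WT 1 and KO 12 show where both ratios part. After loess WT 1 was the lowest or second lowest of 22 arrays at the brightest probe of Ihh, Ptch1, Gli1, Gli2, Hhip and Pthlh. By the scanner ratio it ranked 18 for Ihh, 20 for Ptch1, 14 for Gli1, 18 for Gli2, 4 for Hhip and 13 for Pthlh, counted from the lowest. KO 12 ranked 1 or 2 after loess for the same 6 genes and 1, 3, 7, 6, 5 and 19 by the scanner ratio. Which ratio gives the better ranks of these arrays was not tested.

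In the Cy5 channel alone, quantile-normalised without the reference channel, Hhip differed by -0.40 (-0.58 to -0.22) and Pthlh by -0.36 (-0.52 to -0.20), with a limma adjusted p of 0.18 for both over all genes. That is the smallest adjusted p of Hhip and of Pthlh over the 27 alternative settings. Ihh differed by -0.26 (-0.50 to -0.019, limma adjusted p = 0.999).

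Of the 7 genes with 2 tested probes, Pthlh had the probes that parted most by the deposited ratio. They lie at chr6:147209574-147209633 and chr6:147209606-147209665 (minus strand, mm8) and share 28 bases. By the scanner ratio the first differed by 0.057 (-0.57 to 0.69) and the second by -1.32 (-1.997 to -0.64, limma adjusted p over all probes = 0.75). The Cy3 signal of the second probe above background was 12.1 to 51.5 units in KO and 8.80 to 21.2 units in WT. That of the first was 15.7 to 31.3 units in KO and 15.9 to 51.4 units in WT. The same reference RNA was on every array, and these signals were near background, with Cy3 well above it for the second probe on 3 KO arrays and 0 WT arrays. The deposited difference of the second probe was made up of -0.13 in processed Cy5 less 1.18 in processed Cy3, and that of the first of -0.32 in Cy5 less -0.38 in Cy3 (log2, KO minus WT). After loess the probes gave -0.10 and -0.25, and in the Cy5 channel alone -0.36 and -0.19.

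Across arrays, Ihh and its targets Gli1 and Ptch1 varied together, each gene read by its brightest probe. Correlations were taken over the 22 arrays after removing each genotype's mean, for all 28 pairs of the 8 tested genes, with p-values from permutation within genotype, adjusted over the 28 pairs. Ihh and Gli1 had a Pearson r of 0.89 (permutation p = 1e-05, the smallest that 1e+05 permutations can give, adjusted p = 0.00028) and a Spearman rho of 0.87 (permutation p = 1e-05). Ihh and Ptch1 had r = 0.79 (permutation p = 4e-05, adjusted p = 0.00056) and rho = 0.77 (permutation p = 0.00024). Ptch1 and Gli1 had r = 0.81 (permutation p = 6e-05, adjusted p = 0.00056) and rho = 0.80 (permutation p = 3e-05). Arrays high in the ligand were thus high in both targets at these probes. The 2 Ptch1 probes had an r of 0.23 with each other (-0.070 by the scanner ratio). Pairs with the dimmer Ptch1 probe were not tested. The brightest probes of Ihh, Gli1 and Ptch1 had 10 spots per array each. Those of Smo, Gli2, Gli3, Hhip and Pthlh had 1 spot. The part of spot number in these correlations was not tested.

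**Figure D3:**
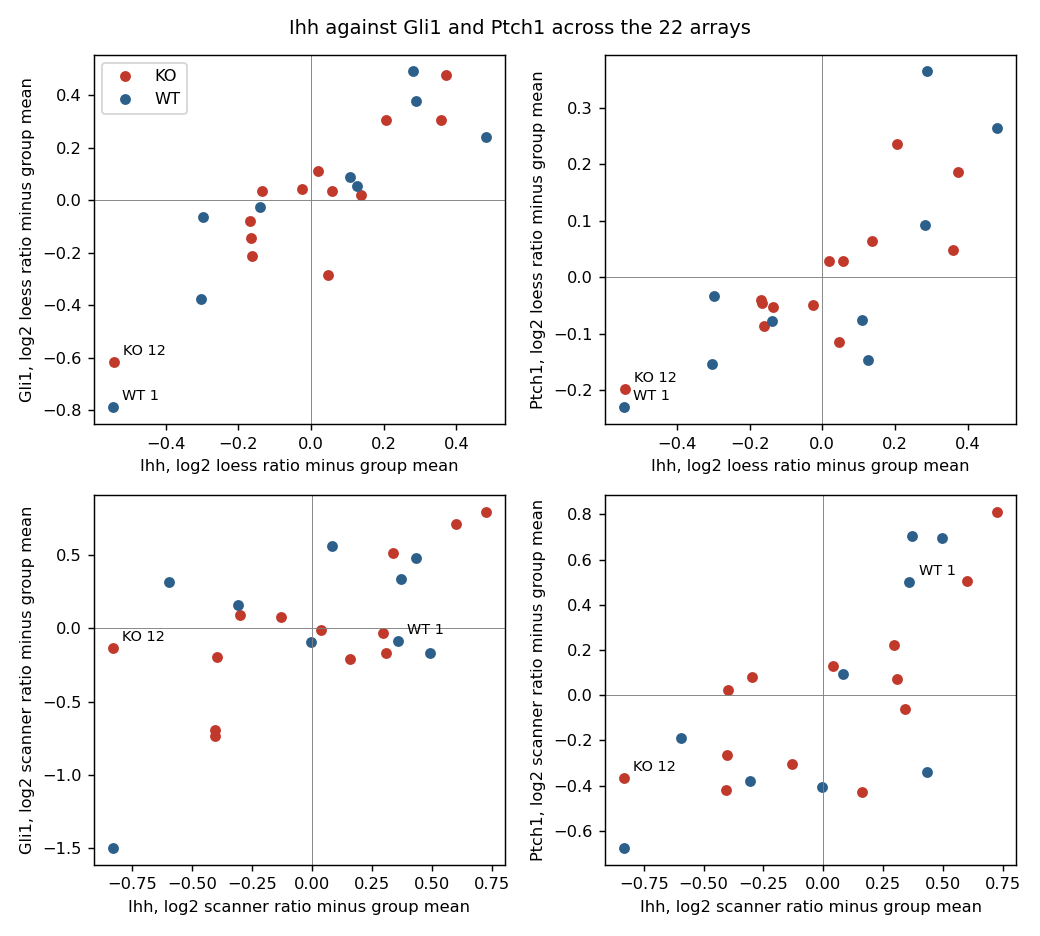
Each point is 1 array, red for KO and blue for WT, with the group mean subtracted, and the axes give Ihh against Gli1 (left) and Ptch1 (right) after loess (top) and by the scanner ratio (bottom). WT 1 and KO 12 lie at the low end of both axes after loess. By the scanner ratio WT 1 lies above the group mean of Ihh, while KO 12 stays low in Ihh.

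All 3 relations passed when the arrays at the end were left out. Without the 2 arrays farthest from the median in the first gene of the pair, r was 0.82 for Ihh with Gli1, 0.73 for Ihh with Ptch1 and 0.87 for Ptch1 with Gli1. In KO alone r was 0.89, 0.82 and 0.90 in that order, and all 3 passed. In WT alone (exact permutation, n = 9) r was 0.89, 0.78 and 0.76, of which Ihh with Gli1 passed (adjusted p = 0.014) and the others had an adjusted p of 0.098. With slide means removed too it was 0.87, 0.75 and 0.79, and with position means removed 0.89, 0.83 and 0.87. By the scanner ratio r was 0.63 (adjusted p = 0.027), 0.72 (adjusted p = 0.011) and 0.53, where the last pair did not pass. The lowest values by the scanner ratio when 1 array was left out came without WT 6, at 0.51, 0.67 and 0.41. From the Cy5 channel alone r was 0.78, 0.61 and 0.62, and all 3 pairs passed. Over the 34 alternative settings, Ihh with Gli1 passed in 34, Ihh with Ptch1 in 33 and Ptch1 with Gli1 in 32. These settings are not all separate checks. They include leaving out each of the 22 arrays in turn, and a stricter background filter that used the same values for these genes.

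Of the 28 pairs, 9 passed over all arrays (32.1%), all with positive r, at an r of 0.54 or more. Among all pairs of tested genes, 14.1% had an absolute r at least as high. Besides those of Ihh, Gli1 and Ptch1 they were Ihh with Pthlh (0.75), Gli1 with Pthlh (0.76), Hhip with Pthlh (0.72), Gli1 with Gli2 (0.64), Ptch1 with Gli2 (0.55) and Gli2 with Hhip (0.54). By Spearman's rho 5 pairs passed, the 3 above and Pthlh with Ihh and with Gli1. Without both WT 1 and KO 12 only the 3 pairs of Ihh, Gli1 and Ptch1 passed, and the r of Hhip with Pthlh was 0.045. Without KO 12 alone 5 pairs passed, and without KO 1 alone 12. Smo and Gli3 were in no passing pair over all arrays. Without WT 1, Smo with Gli1 passed with a negative r of -0.63 (permutation adjusted p = 0.015). All Smo pairs used its brightest probe. The other tested Smo probe ran opposite to it across the arrays, and pairs with that probe were not tested. With median centring, Smo with Gli3 (r = 0.67) and Gli2 with Gli3 (r = 0.61) passed.

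**Figure D4:**
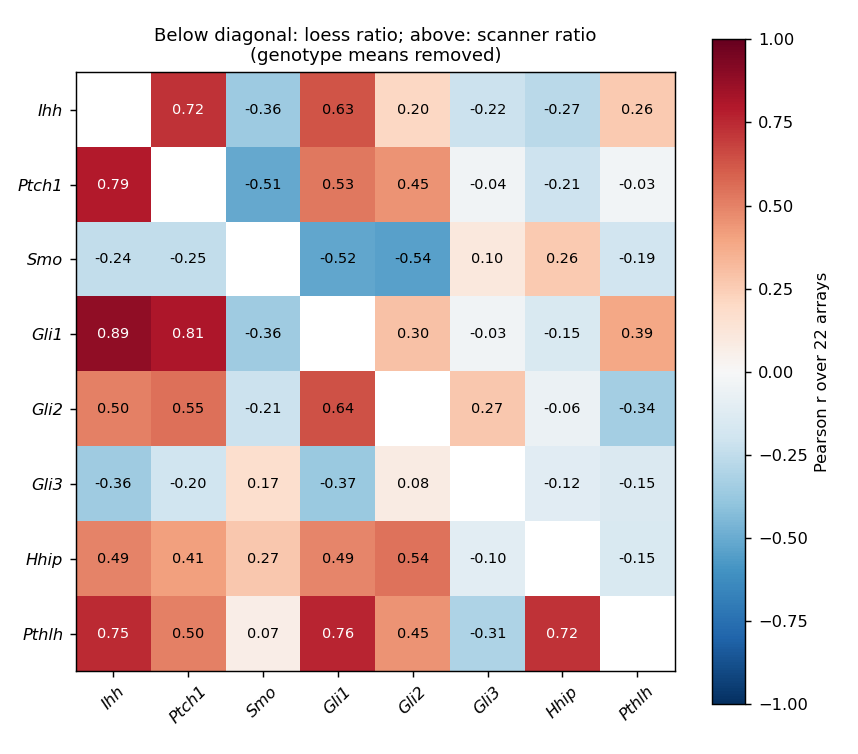
The grid gives Pearson r for each pair of the 8 tested genes over 22 arrays with genotype means removed, after loess below the diagonal and by the scanner ratio above it. Ihh, Ptch1 and Gli1 have 0.79 to 0.89 below and 0.53 to 0.72 above, while Hhip with Pthlh has 0.72 below and -0.15 above.

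Among all 18638 other tested genes, Gli1 was second in likeness to Ihh after Kcns1, a potassium channel subunit (r = 0.92), and Glyctk, glycerate kinase, was the third (0.87). For Ptch1 the closest were Zbtb9 (0.85), the retinoic acid receptor Rara (0.83) and Papss2 (0.83), which makes the sulfate donor for proteoglycans, with Gli1 ranked 7. For Gli1 they were Patz1 (0.95), Rogdi (0.93) and Tbx4 (0.92), with Ihh ranked 12. By the scanner ratio Gli1 ranked 386 for Ihh and Ptch1 ranked 101, and without WT 1 and KO 12 after loess they ranked 7 and 68. Pthlh lay closest to the cartilage collagen Col9a1 (0.90), Olfml1 (0.90) and the muscle factor Myod1 (0.89). Hhip lay closest to Ly6g6e (0.94), the exchanger Slc8a1 (0.93) and Kcnip4 (0.93). Gli2 lay closest to the chondrocyte factor Sox6 (0.88), Col19a1 (0.86) and Tex15 (0.86). Gli3 had the fewest close genes, with 21 over 0.7, led by Ptprf (0.83), Ttc28 (0.79) and Sap130 (0.78). Zfp74 and Cradd were among the genes closest to Smo (both 0.96).

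Both tested Smo probes belong to the same transcript and ran opposite to each other. The upstream one at chr6:29705592-29706825 (plus strand, mm8) spans 1234 bases on the genome, where the others span 60, and so crosses an intron, and the downstream one is at chr6:29711235-29711294. Over the 22 arrays their r was -0.63 (permutation p = 0.0033, adjusted over 7 such probe pairs 0.0077) with rho = -0.56 (permutation p = 0.0096), and -0.57 without the 2 farthest arrays. By contrast the 2 Ihh probes had r = 0.87 and the 2 Pthlh probes 0.86, while those of Ptch1 had 0.23 and of Gli3 0.10. By the scanner ratio the Smo probes had -0.68, the Ihh probes 0.15 and the Pthlh probes 0.21, and after loess without the 2 farthest arrays the Pthlh probes had 0.52. An index of each array was taken as the mean, over 4235 other genes, of an upstream minus a downstream probe of the gene 500 to 20000 bases apart. The upstream Smo probe rose with that index (r = 0.81, rho = 0.89, permutation p = 4e-05 and 1e-05) and the downstream one fell with it (r = -0.78, rho = -0.67, permutation p = 4e-05 and 0.0011). With slide means removed r was 0.81 and -0.82, with position means removed 0.85 and -0.81, and without the 2 farthest arrays 0.77 and -0.65. The upstream Smo probe differed between KO and WT by 0.18 (-0.14 to 0.50) and the downstream one by -0.039.

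**Figure D5:**
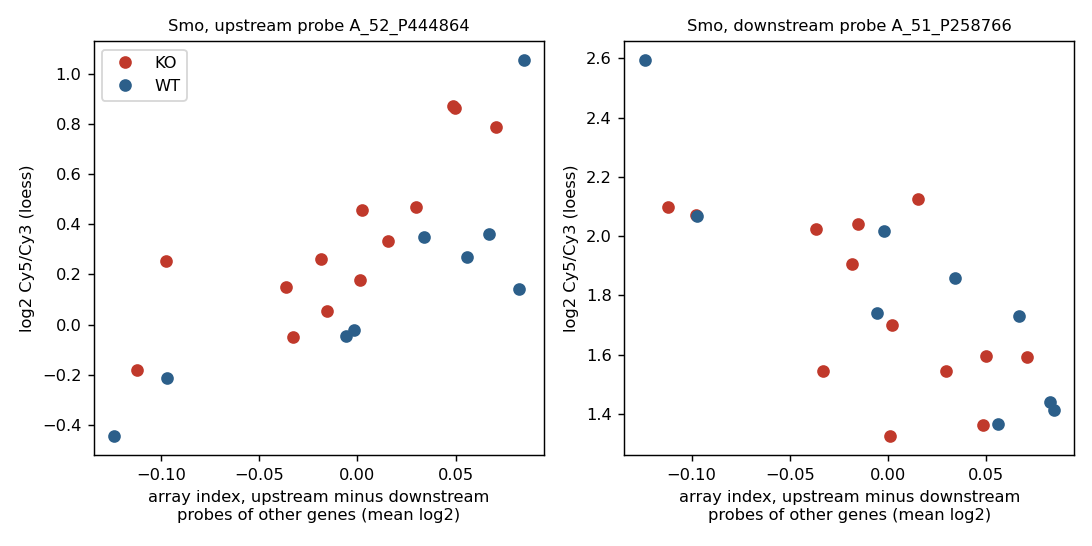
Each point is 1 array, red for KO and blue for WT. The log2 ratio of the upstream Smo probe (left) goes up with the array's upstream-minus-downstream index and that of the downstream probe (right) goes down, with KO and WT arrays over the same range of the index.

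The index did not separate the genotypes, at -0.0073 ± 0.0543 in KO and 0.0106 ± 0.0762 in WT (SD, n = 13 and 9, exact permutation p = 0.522). Its r was 0.47 with Ihh (rho = 0.48, permutation adjusted p = 0.086), 0.51 with Gli1 (rho = 0.55, permutation adjusted p = 0.060) and 0.55 with Ptch1 (rho = 0.67, permutation adjusted p = 0.0496), adjusted over the 15 tested probes. The other probe of Ihh had 0.11 (adjusted p = 0.885) and that of Ptch1 -0.41 (adjusted p = 0.182, by permutation). The brightest Gli3 probe (r = -0.47, rho = -0.41) and the dimmer Gli2 probe (r = 0.53, rho = 0.47) also had a permutation adjusted p of 0.0496. For the brightest probes of Ihh, Gli1 and Ptch1, r was 0.35, 0.45 and 0.45 with slide means removed. Without WT 1 it was 0.69, 0.83 and 0.71. With the index removed from each gene over all 22 arrays, the r of Ihh with Gli1 was 0.86. That of Ihh with Ptch1 was 0.72 and that of Ptch1 with Gli1 0.74. All 3 pairs passed. The index was not removed with WT 1 left out, where its r with Ihh, Gli1 and Ptch1 was higher. Smo with Gli1, at an r of -0.36 over all arrays, had 0.073 with the index removed.

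Cell type markers moved with many of the genes across arrays. Of 80 relations of 8 genes with 10 lists, 23 passed, all with positive r, spread over 8 lists. The share of all tested genes that pass with these lists was not computed, so the count has no background of its own. Among all pairs of single tested genes, 17.6% had an absolute r of 0.5 or more. The mean of 8 chondrocyte markers had r = 0.83 with Pthlh, 0.78 with Hhip and 0.61 with Ihh (rho = 0.57, 0.47 and 0.49, permutation adjusted p = 0.0072, 0.0078 and 0.028). With slide means removed these were 0.85, 0.80 and 0.67, and without the 2 arrays farthest in the marker mean 0.43, 0.35 and 0.28. That mean, as a deviation from the average of all arrays, was -0.61 to 0.33 in KO and -0.98 to 0.60 in WT. Of the 8 markers, 7 had a lower mean in KO, against 53.4% of all genes, and 0 of them passed the threshold. Means were also lower for 5 of 5 tested markers of hypertrophic cartilage and osteoblasts and for 5 of 6 of skeletal muscle. They were lower for 4 of 5 surface ectoderm markers and for 1 of 5 markers of neurons and Schwann cells.

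The mean of the hindlimb factors Tbx4 and Pitx1 had r = 0.85 with Pthlh, 0.76 with Gli1, 0.69 with Ihh and 0.57 with Ptch1 (rho = 0.69, 0.55, 0.64 and 0.66, permutation adjusted p = 0.0072, 0.0077, 0.0077 and 0.045). With slide means removed these were 0.89, 0.80, 0.70 and 0.55, and without the 2 farthest arrays 0.42, 0.40, 0.40 and 0.40. That mean was -0.36 to 0.17 in KO and -0.46 to 0.24 in WT. The 5 markers of neurons and Schwann cells had r = 0.84 with Hhip (rho = 0.59, permutation adjusted p = 0.0072), 0.85 with slide means removed and 0.40 without the 2 farthest arrays. Their mean was -0.44 to 0.25 in KO and -1.21 to 0.22 in WT. The smallest adjusted p was that of the 4 endothelial markers with Gli2 (r = 0.79, rho = 0.63, permutation adjusted p = 0.0024), at 0.76 with slide means removed and 0.58 without the 2 farthest arrays. Their mean also passed with Hhip (0.81), Pthlh (0.79), Gli1 (0.74) and Ihh (0.63), which without the 2 farthest arrays were 0.16, -0.088, 0.30 and 0.17. It was -0.88 to 0.26 in KO and -1.14 to 0.38 in WT. The forelimb factor Tbx5 passed with Gli1 (0.67) and Gli2 (0.57), at 0.32 and 0.16 without the 2 farthest arrays. The remaining passing relations were of hindlimb, nerve, erythroid, skeletal muscle or surface ectoderm markers with Gli2, Pthlh or Hhip. The part of these markers in the values of the hedgehog genes was not tested.

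Further genes of the pathway were examined as 5 lists, and with limma no gene of them passed over all genes, while 2 had an unadjusted p under 0.05, against 5.33% of all genes. Of the genes for ligand processing and release, 6 of 7 were tested, 3 with a lower and 3 with a higher mean in KO (median -0.030). The ligand carriers Scube2 and Scube3 had the smallest p of these, with differences of -0.12 (-0.28 to 0.039) and 0.081 (-0.056 to 0.22). The 5 other receptors and co-receptors had a median of 0.0058, with the co-receptor Cdon at -0.024 (-0.13 to 0.084). The 19 transducers had 9 lower and 10 higher means, between -0.11 and 0.13, with the kinase Stk36 at 0.12 and the ubiquitin ligase part Btrc at 0.12.

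Of 15 other genes known to be raised by hedgehog signalling 13 were tested, 6 with a lower and 7 with a higher mean in KO (median 0.033). The cyclin Ccnd1 differed by -0.17 (-0.38 to 0.042) and the cartilage factor Nkx3-2 by 0.21 (-0.081 to 0.49). In the list around parathyroid hormone-related protein, 5 of 6 tested genes had a lower mean in KO (median -0.12), against 53.4% of all genes. Runx3, a transcription factor of cartilage maturation, had a difference of -0.32 (-0.53 to -0.10, limma adjusted p = 0.91) at its brightest probe and -0.026 at its other probe. Mef2c, which drives hypertrophy of cartilage cells, differed by -0.47 (-0.85 to -0.092, limma adjusted p = 0.92).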

How the data were processed

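Forelimb RNA of 13 KO and 9 WT samples was hybridised on 22 two-colour arrays, grouped by the sample labels. The submitters' processing notes name Feature Extraction 9.5, and the headers of the files give release 9.5.3.1. The deposited mean and background values are raw intensities per the file headers, while the software's processed intensities had background subtracted and dyes balanced. The ratios are deposited as log10 (processed red signal divided by processed green signal), turned here into log2, and equal the deposited value table (largest difference 0). Deposited spot flags are 0 or 1.

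From these, intensities were corrected with normexp (offset 50), normalised by loess within arrays with control and outlier spots at weight 0, and averaged per probe. A probe was tested if at least a share of 0.5 of its spots had Cy5 well above background on at least 9 arrays (27782 probes), and a gene was represented by its brightest probe (18639 genes and unnamed probes). Differences, KO minus WT, came from limma 3.58.1 (R 4.3.3) on all arrays, adjusted by Benjamini-Hochberg over all genes at 0.05. Intervals are 95%. The number of arrays limits the precision. Correlations used numpy 2.4.6 with 1e+05 permutations. The scripts were tested on simulated data.

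Named were all 9 genes, the 3 named genes closest to each tested one, and of each list any passing gene, otherwise the 2 with the smallest p. Of the genes so named, 2 are not reported here. The genes and lists were chosen with earlier results of these data known. Alternatives covered background, scaling, filter, probe choice, blocks, weights and left-out arrays. Probe coordinates are those of the files (mm8, with no annotation), and promoter coordinates are GRCm38.p6.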

Additional observations from a re-analysis of the deposited data

Results flagged for a closer look

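In the 30 sets of 9 WT values looked at (15 probes, after loess and by the scanner ratio), 5 held a value far from the others, by Dixon's test at its 95% critical value. Chance gives about 1 in 20 such sets. The array WT 1 was far below the rest after loess for Hhip (0.59, next value 1.496) and for both Pthlh probes (0.99, next 1.98, and 0.55, next 1.60). WT 6 was far below by the scanner ratio of Gli1 (1.76, next 3.08), and WT 2 far above for the dimmer Gli3 probe (0.57, next 0.24). The Shh probe, which entered no comparison, had a Cy5 signal above background of 23.7 units on KO 12, where the highest WT array had 5.07 units.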

How the results depend on the processing

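No hedgehog gene passed under any of the 27 alternative settings or when any 1 of the 22 arrays was left out. Ihh (-0.38 to -0.091), Ptch1 (-0.41 to -0.050), Gli1 (-0.44 to -0.033) and Hhip (-0.60 to -0.14) were lower in KO in all 27. The settings are not all separate checks. Scaling intensities between arrays after loess left these differences unchanged, and the centred scanner ratio and the value table gave those of the scanner ratio again. Signs turned for Gli2 with plain subtraction (-0.015); for Smo with median centring (0.074 relative to a shift of all genes of 0.24), the Cy5 channel alone (0.0035) and averaged probes (0.071); for Pthlh with the scanner log ratio, centred or not, and the value table (0.057 in each) and with processed signals and loess (0.041); and with position as a block or position 2 alone for Smo (0.053), Gli2 (-0.037) and Gli3 (-0.066). In position 2 without KO 1, Smo was at 0.20 and Gli2 at -0.0076. Leaving out 1 array gave -0.20 to -0.069 for Ihh, -0.12 to -0.043 for Ptch1, -0.093 to 0.060 for Smo (above 0 without WT 6), -0.18 to -0.019 for Gli1, 0.00068 to 0.097 for Gli2, 0.11 to 0.20 for Gli3, -0.39 to -0.19 for Hhip and -0.25 to -0.026 for Pthlh.

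The count of genes past the threshold was 4, and 2 to 6 without 1 array. It was 1 with median centring, the scanner ratio, centred or not, the value table, slide as a block, position as a block and the replicate block, and 1 in position 2 without KO 1 or without both WT 1 and KO 12. It was 2 without both WT 1 and KO 1, 8 with processed signals plus 50 and loess, and with limma 0 in position 2 (436 genes at an unadjusted p under 0.05). The count of 9 correlated pairs was 5 (without KO 12) to 12 (without KO 1) when 1 array was left out. It was 4 in KO alone, 1 in WT alone (exact enumeration), 3 without each pair's 2 farthest arrays and 2 by the scanner ratio. It was 3 from the Cy5 channel and 3 without both WT 1 and KO 12. The causes were not tested. Same-numbered KO and WT arrays correlated at -0.31 to 0.49, over 0.1 in 3 of 9 pairs, so they share only a number. Hhip, Pthlh, Gli1 and Ptch1 are limited by reference signals near background.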
